A study of Homo sapiens with 6 samples.

Results

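Proteins that enter the secretory pathway pass through the endoplasmic reticulum (ER), and 55 genes of this route were taken from the deposited table of 58735 genes by their gene names. They cover 5 steps, with 9 genes of translocation, 6 of oligosaccharyl transfer, 14 of folding, 14 of degradation and 12 of export in COPII vesicles. RNA was sequenced from HCT116, a line of human colorectal carcinoma, in 3 control libraries (CTR, labelled WT) and 3 libraries of cells given 50 nM miR-8485 mimics for 48 h (miR-8485). A mimic is a synthetic RNA with the sequence of a mature miRNA, and neither dose nor sequence of the control is stated. All 6 libraries share 1 cell line and no further allele or agent is labelled. The comparison asks how the mRNA of the ER route differed between cells with and without the mimic.

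A nascent secretory or membrane protein is threaded into the ER through the SEC61 channel, and the oligosaccharyltransferase complex transfers a preassembled sugar tree onto its asparagines. Glucosidases then trim the tree, lectin chaperones hold the chain while disulfide isomerases pair its cysteines, and a glucosyltransferase sends unfinished chains back for another round. Chains that fail are trimmed by mannosidases, recognised by lectins, pulled back through a membrane ubiquitin ligase complex and degraded by the proteasome (ER-associated degradation, ERAD). Finished cargo leaves in vesicles coated by COPII, whose inner layer selects cargo.

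Levels are given as FPKM, fragments scaled to library size and to the gene length listed in the deposited table. That length need not be the length of the expressed mRNA, so levels of different genes are not directly comparable. The libraries held 17473874 to 17888110 fragments on listed genes in CTR and 17710376 to 18480047 in miR-8485. CTR replicate 1 stood apart, with a chi-square per gene on recovered fragments of 10.5 and 8.46 to the other CTR libraries, beside 2.75 to 3.87 for all other pairs within a group and 61.0 to 70.3 between groups. Changes are log2 fold changes of FPKM + 0.1 (miR-8485 minus CTR), tested with limma and adjusted by Benjamini-Hochberg over the 12349 genes with a mean of at least 1 FPKM, with calls made below an adjusted p of 0.05. Of all these genes, 30.5% were called lower and 29.1% higher in miR-8485, and under rescaling to TPM, in which every library sums to the same total and which moved the median of all genes to -0.12, the calls were 4723 lower and 2614 higher. FPKM is a share of a library, so fewer cells of a kind and less RNA of a gene per cell cannot be told apart, and a change in total RNA per cell is not visible. Of 7 colorectal epithelial markers, EPCAM, CDH1, KRT8, KRT18, KRT19 and CDX2 were at 15.5 FPKM or more in every library and VIL1 was at 0.0639 or less. KRT8, KRT18 and KRT19, keratins of simple epithelia, had means of 848, 572.5 and 1147 FPKM in CTR and 552, 291.8 and 768 in miR-8485, and CDX2, an intestinal transcription factor, had 16.04 and 28.2, all without overlap. EPCAM (means of 134.9 and 130.3 FPKM) and CDH1 (19.7 and 19.05) overlapped between the groups. Of 9 markers of other cell types, CD3E and DCN were at 0 in every library and COL1A1 alone exceeded 0.462 FPKM in a library. The summed level of these 9 was 4.32 to 4.68 FPKM in CTR and 6.77 to 7.01 in miR-8485, and 0.160 to 0.373 and 0.367 to 0.740 without COL1A1. The part of these markers in the results was not tested.

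Across the ER route, 34 of 54 tested members were downregulated and 8 were upregulated in miR-8485, and 12 did not pass the threshold. Without CTR replicate 1, 35 were lower and 8 higher, and the step medians were -0.18 (translocation), -0.25 (oligosaccharyl transfer), -0.43 (folding), -0.34 (degradation) and -0.23 (COPII export). The share of members called lower was 63.0%, beside 30.5% of all genes, and the share called higher was 14.8%, beside 29.1%. The median log2 fold change of the members was -0.29, beside 0.00 for all genes tested (-0.12 under TPM). DERL3, a derlin of secretory tissues, was at 0 FPKM in every library and was the only member below the filter. All other members had a mean above 1 FPKM in both groups, from 1.29 to 297 FPKM in CTR and from 1.23 to 221 in miR-8485, with at least 87 fragments in every library. In 37 members all 3 miR-8485 libraries lay below all CTR libraries (34.0% of all genes), in 9 they lay above (32.5% of all genes), and 8 tested members overlapped. Per library, the median of the members relative to the CTR mean was -0.0048 to 0.023 in CTR and -0.29 to -0.27 in miR-8485.

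**Figure D1:**
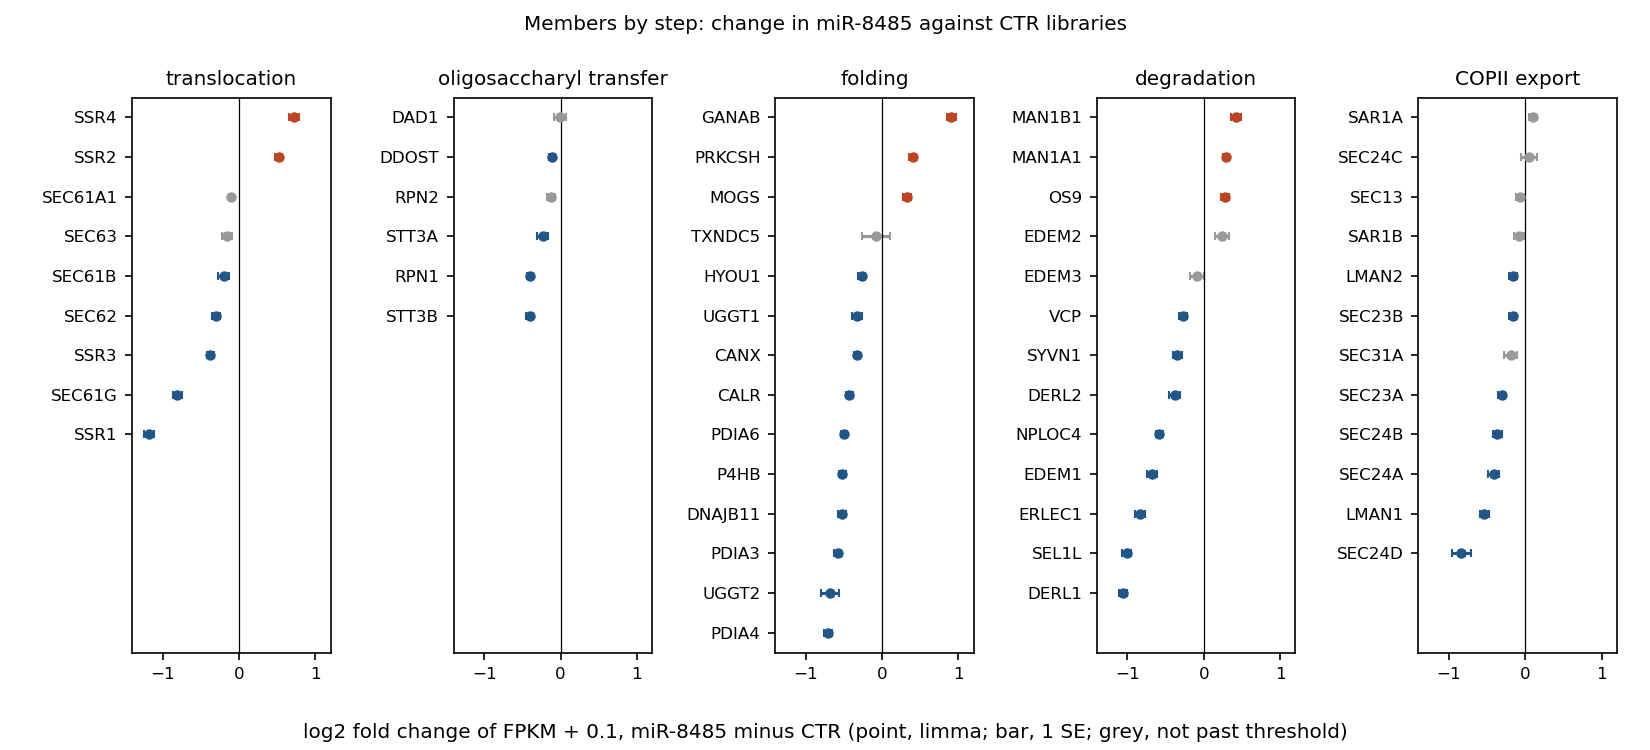
Log2 fold change of FPKM + 0.1 in miR-8485 against CTR (x axis) for the 54 tested members, one row each, in a panel for each of the 5 steps. Points are limma estimates and bars 1 SE, with called members in blue (lower) or red (higher) and the 12 others in grey. The values run from -1.18 for SSR1 to 0.91 for GANAB, and no member of oligosaccharyl transfer or COPII export was called higher.

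The 3′ untranslated regions (UTRs) of the members were scanned for TGTGTGT, the 7-base word that pairs with the seed of the mimic as given in the study's methods, and examples from members that were lower, higher or not called are shown. Taking the longest 3′ UTR of each gene, 17 of the 55 members held the word. In the canonical transcript 15 held it, among them SEC31A, which lacks it in its longest 3′ UTR. Of the 17 members, 11 were downregulated, 1 was upregulated and 5 did not pass the threshold, with a median log2 fold change of -0.33. The 37 tested members without the word had a median of -0.27, with 23 downregulated and 7 upregulated. Over all tested genes the medians were -0.15 for 3224 genes with the word and 0.02 for 7450 genes without it. Calls among these genes were not counted by word. Of all tested genes, 30.5% were called lower and 29.1% higher, and of all tested members 63.0% were called lower. The sites below are from GRCh38 with the canonical transcripts of GENCODE, written 5′ to 3′ on the transcript strand, with the run of alternating T and G in capitals.
SSR1 3′ UTR, chr6:7289744-7289757, minus strand: actTGTGTGTGgac
LMAN1 3′ UTR, chr18:59329641-59329654, minus strand: tgcTGTGTGTGcaa
CANX 3′ UTR, chr5:179730957-179730975, plus strand: tcaGTGTGTGTGTGTGact
MAN1A1 3′ UTR, chr6:119178052-119178064, minus strand: taaTGTGTGTctg
DAD1 3′ UTR, chr14:22565002-22565014, minus strand: cacTGTGTGTcag
SSR1 has 4 such runs, CANX 3, MAN1A1 2, and LMAN1 and DAD1 1 each. SSR1, LMAN1 and CANX were downregulated (-1.18, -0.54 and -0.33), MAN1A1 was upregulated (0.29) and DAD1 had means of 152 and 151 FPKM without a call (adjusted p = 0.97). The site of CANX lies past the end of this gene in the deposited table, chr5:179730925, and the other 4 lie within the spans listed there. The presence of the word describes the sequence, and binding was not measured.

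The promoters were also scanned for 3 elements through which ER stress factors are known to act. Promoter windows from RefSeq (GRCh38.p14) were found for 48 of the 55 members, and only the first window listed for each gene was used. The ER stress element (ERSE), CCAAT and CCACG with 9 bases of any kind between them, was searched on both strands and lay in the promoters of CALR and CANX, and in 0.0806% of all 27305 promoters. ERSE-II, ATTGG and CCACG with 1 base between them, was found at 2 places in HYOU1 (0.0549% of all promoters). The unfolded protein response element (UPRE) TGACGTGG lay in SEC62, HYOU1, VCP, SEC23A and SEC24A (0.795% of all promoters), overlapping an ERSE-II in HYOU1. With 1 mismatch allowed, an ERSE lay in 6 members, which added HYOU1, SEL1L, SYVN1 and LMAN2 (1.59% of all promoters). The exact elements of the lectin chaperones and of HYOU1, and the nearest ERSE of SEL1L, are printed as examples, 5′ to 3′ on the strand of the gene with the element in capitals. In CALR and HYOU1 it reads on the opposite strand, so its complement is shown.
CALR promoter, chr19:12938376-12938410, plus strand: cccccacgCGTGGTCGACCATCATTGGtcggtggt
CANX promoter, chr5:179698770-179698804, plus strand: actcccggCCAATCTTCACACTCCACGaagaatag
HYOU1 promoter, chr11:119057372-119057398, minus strand: ccccgtgaCGTGGTCCAATcccaggcc
SEL1L promoter, chr14:81534034-81534068, minus strand: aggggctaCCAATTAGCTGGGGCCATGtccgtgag
An exact ERSE, ERSE-II or UPRE lay in 7 tested members, and all 7 were called lower, in a list of which 63.0% of the tested members were called lower. These were CALR (-0.43), CANX (-0.33), HYOU1 (-0.27), SEC62 (-0.30), VCP (-0.27), SEC23A (-0.31) and SEC24A (-0.42). Among tested genes outside the members, 100 had one of the 3 exact elements, of which 36 were called lower and 22 higher (median -0.08), beside 30.5% lower and 29.1% higher of all genes. The match is a description of these windows, and elements outside them were not searched. Some elements lie inside the gene span of the deposited table, as does that of CANX, whose span starts at chr5:179678628.

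Translocation divided between subunits that work in the same complexes. Of its 9 members, 5 were downregulated, 2 were upregulated and 2 did not pass the threshold, with a median of -0.20. The called shares were 55.6% and 22.2%, beside 30.5% lower and 29.1% higher of all genes. The translocon-associated protein complex (TRAP), which sits beside the channel and helps some chains to enter, changed in both directions. SSR1, its alpha subunit (ENSG00000124783, chr6:7268306-7347446, minus strand, hg38), had 17.1, 15.6 and 15.9 FPKM in CTR and 7.53, 6.88 and 6.89 FPKM in miR-8485. These groups were far apart, and the level in miR-8485 was 43.9% of that in CTR. The log2 fold change of SSR1 was -1.18 ± 0.06 (SE), adjusted p = 7.9e-06.

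SSR4, the delta subunit (ENSG00000180879, chrX:153793516-153798505, plus strand), had 21.3, 21.5 and 20.4 FPKM in CTR and 38.1, 34.7 and 32.3 FPKM in miR-8485. It rose in every miR-8485 library, with a log2 fold change of 0.73 ± 0.07 (SE), adjusted p = 7.7e-05. SSR2, the beta subunit (ENSG00000163479, chr1:156009048-156020959, minus strand), had 19.3, 18.2 and 18.7 FPKM in CTR and 27.3, 27.9 and 25.7 FPKM in miR-8485. Again no libraries overlapped, and SSR2 changed by 0.52 ± 0.05 (SE), adjusted p = 9.9e-05. SSR3, the gamma subunit, fell from 50.6 ± 1.79 (SD, n = 3) to 39.0 ± 0.87 FPKM (-0.37). In CTR the means of SSR1, SSR2 and SSR4 were 16.2, 18.8 and 21.1 FPKM, and in miR-8485 they were 7.10, 27.0 and 35.0 FPKM. These values are scaled to listed lengths of 11349, 6651 and 4590 bases. Only the change within each gene is therefore read here, and not the level of 1 subunit against another. The log2 ratio of SSR1 to SSR4 within a library was -0.38 ± 0.08 (SD, n = 3) in CTR and -2.29 ± 0.06 in miR-8485. This pair was picked after its values were seen and was not tested.

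The SEC61 channel itself consists of a pore subunit and a pair of small single-span subunits. SEC61G, the gamma subunit (ENSG00000132432, chr7:54752250-54759974, minus strand), had 61.4, 53.3 and 53.8 FPKM in CTR and 32.9, 31.4 and 31.7 FPKM in miR-8485. All 3 miR-8485 libraries lay below the CTR libraries, and the log2 fold change was -0.81 ± 0.06 (SE), adjusted p = 3.7e-05. The pore SEC61A1 had a mean of 81.6 ± 1.33 FPKM in CTR and 76.2 ± 0.83 in miR-8485 and did not pass the threshold (-0.10 ± 0.04, adjusted p = 0.052). It was called lower with a pseudocount of 1 (adjusted p = 0.0494), under TPM (0.00444), with the GC trend removed (0.00743) and without CTR replicate 1 (0.0305). SEC61B, the beta subunit, was called at -0.20 (adjusted p = 0.04), a call that was lost without CTR replicate 1 or 3 or miR-8485 replicate 2 or 3 (adjusted p of 0.0524 to 0.119), with no filter (0.105) and with no variance trend (0.0741). SEC62 and SEC63 help the channel to take up chains after their synthesis. SEC62 had 11.9, 12.1 and 11.2 FPKM in CTR and 9.42, 9.67 and 9.36 FPKM in miR-8485, without overlap (-0.30 ± 0.05 (SE), adjusted p = 0.0016). SEC63 had 6.097, 6.496 and 6.396 FPKM in CTR and 5.34, 5.83 and 5.88 FPKM in miR-8485, also without overlap, but missed the threshold (-0.15 ± 0.06, adjusted p = 0.063), and it was called lower under TPM (adjusted p = 0.0123).

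Among 18 other genes of targeting and translocation, with the signal recognition particle, its receptor, the signal peptidase and TRAM proteins, 7 were downregulated and 2 upregulated (median -0.13). That is 38.9% and 11.1%, beside 30.5% and 29.1% of all genes. The falls were led by HSPA13 (11.3 to 7.98 FPKM, -0.50 ± 0.06 (SE), adjusted p = 0.00022), an ER-associated chaperone of the HSP70 family, and TRAM2 (8.37 to 6.07 FPKM, -0.46 ± 0.07 (SE), adjusted p = 0.0011). The 2 genes that rose were SRP14 (115 to 149.6 FPKM, 0.38 ± 0.04 (SE), adjusted p = 0.00029), a subunit of the signal recognition particle, and SPCS3 (17.3 to 19.4 FPKM, 0.17 ± 0.05 (SE), adjusted p = 0.023), a subunit of the signal peptidase.

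The 6 members of oligosaccharyl transfer held calls in 1 direction, while 30.5% of all genes were called lower and 29.1% higher. All 6 members had a log2 fold change below 0, 4 were called lower, 0 were called higher by limma (0 at an unadjusted p under 0.05, 0 by voom), and the median was -0.18. STT3B, the catalytic subunit that can modify sites after translocation, had 49.6, 49.02 and 48.4 FPKM in CTR and 36.02, 38.3 and 36.6 FPKM in miR-8485. Its groups did not overlap (-0.41 ± 0.04 (SE), adjusted p = 0.00014). RPN1 (ribophorin I), a structural subunit, had 84.5, 83.8 and 83.9 FPKM in CTR and 65.3, 61.4 and 63.8 FPKM in miR-8485. The miR-8485 libraries were again all lower (-0.40 ± 0.04 (SE), adjusted p = 0.00012). STT3A, the catalytic subunit that works at the channel, had 19.6, 23.6 and 22.8 FPKM in CTR and 18.4, 18.9 and 18.7 FPKM in miR-8485. The lowest CTR library lay close to the miR-8485 range (-0.23 ± 0.07 (SE), adjusted p = 0.025). DDOST was called at -0.11 (adjusted p = 0.037), RPN2 had -0.13 (adjusted p = 0.071), and DAD1, the small subunit that stabilises the complex, stood at 152 ± 14.4 FPKM in CTR and 151 ± 9.98 in miR-8485. The calls of STT3A and DDOST were lost with CTR replicate 2 or 3 or any miR-8485 library left out, which leaves 2 of 6 members, STT3B and RPN1. STT3A was also lost after removal of the trend against gene length (adjusted p = 0.069) or GC content (0.059), DDOST under median-of-ratios scaling (0.054) and with no variance trend (0.0837), and both with no filter on low values (0.0668 and 0.0845). RPN2 went the other way and was called lower under TPM (adjusted p = 0.00349), quantile normalization (0.0209), removal of the length (0.0195) or GC trend (0.0289), voom (0.0464), and without CTR replicate 1 (0.00374). Among the alternatives run, DAD1 was called lower only with the length trend removed, at -0.25 (adjusted p = 0.00414).

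The 29 other genes of this step build the sugar tree on its dolichol carrier or belong to other subunits of the transferase. In this list 5 were downregulated and 10 upregulated of 25 tested (20% and 40%, beside 30.5% and 29.1% of all genes), with a median of 0.18. Other subunits of the transferase were called in both directions. OSTC (0.18, adjusted p = 0.015) and TMEM258 (0.49, adjusted p = 0.0023) were higher, and MAGT1 (-0.54, adjusted p = 0.00011) was lower. OST4 and KRTCAP2 did not pass the threshold. ALG1, which adds the first mannose, fell from 6.34 to 2.98 FPKM (-1.07 ± 0.07 (SE), adjusted p = 2.2e-05). NUS1, a subunit of the enzyme that makes the dolichol chain, fell from 19.1 to 10.7 FPKM (-0.83 ± 0.05 (SE), adjusted p = 1.9e-05). DPM3, a small subunit of dolichol-phosphate-mannose synthase, rose from 26.5 to 45.3 FPKM (0.78 ± 0.11 (SE), adjusted p = 0.00068), and SRD5A3, which converts polyprenol to dolichol, rose from 3.91 to 6.13 FPKM (0.64 ± 0.10 (SE), adjusted p = 0.0012). TUSC3, ALG10, ALG10B and ALG11 lay below the filter.

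In folding, 10 of 14 members were downregulated (71.4%), 3 were upregulated (21.4%) and 1 did not pass the threshold, with a median of -0.38. Over all tested genes the shares were 30.5% lower and 29.1% higher. The 3 that rose were the enzymes that trim glucose from the new sugar tree. Among the members, the lectin chaperones, the glucosyltransferases and 4 of 5 disulfide isomerases fell. GANAB, the catalytic subunit of glucosidase II (ENSG00000089597, chr11:62624826-62646726, minus strand), had 35.0, 40.5 and 38.7 FPKM in CTR and 69.1, 72.9 and 72.1 FPKM in miR-8485. Every miR-8485 library was above every CTR library by a wide gap, and GANAB changed by 0.91 ± 0.06 (SE), adjusted p = 2e-05. PRKCSH, the regulatory subunit of glucosidase II, had 49.6, 47.9 and 50.03 FPKM in CTR and 66.3, 62.5 and 65.95 FPKM in miR-8485. PRKCSH also rose without overlap (0.40 ± 0.04 (SE), adjusted p = 0.00018). MOGS, glucosidase I, which removes the first glucose, rose from 21.2 ± 1.16 to 26.6 ± 0.79 FPKM (SD, n = 3; 0.32, adjusted p = 0.0015).

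**Figure D2:**
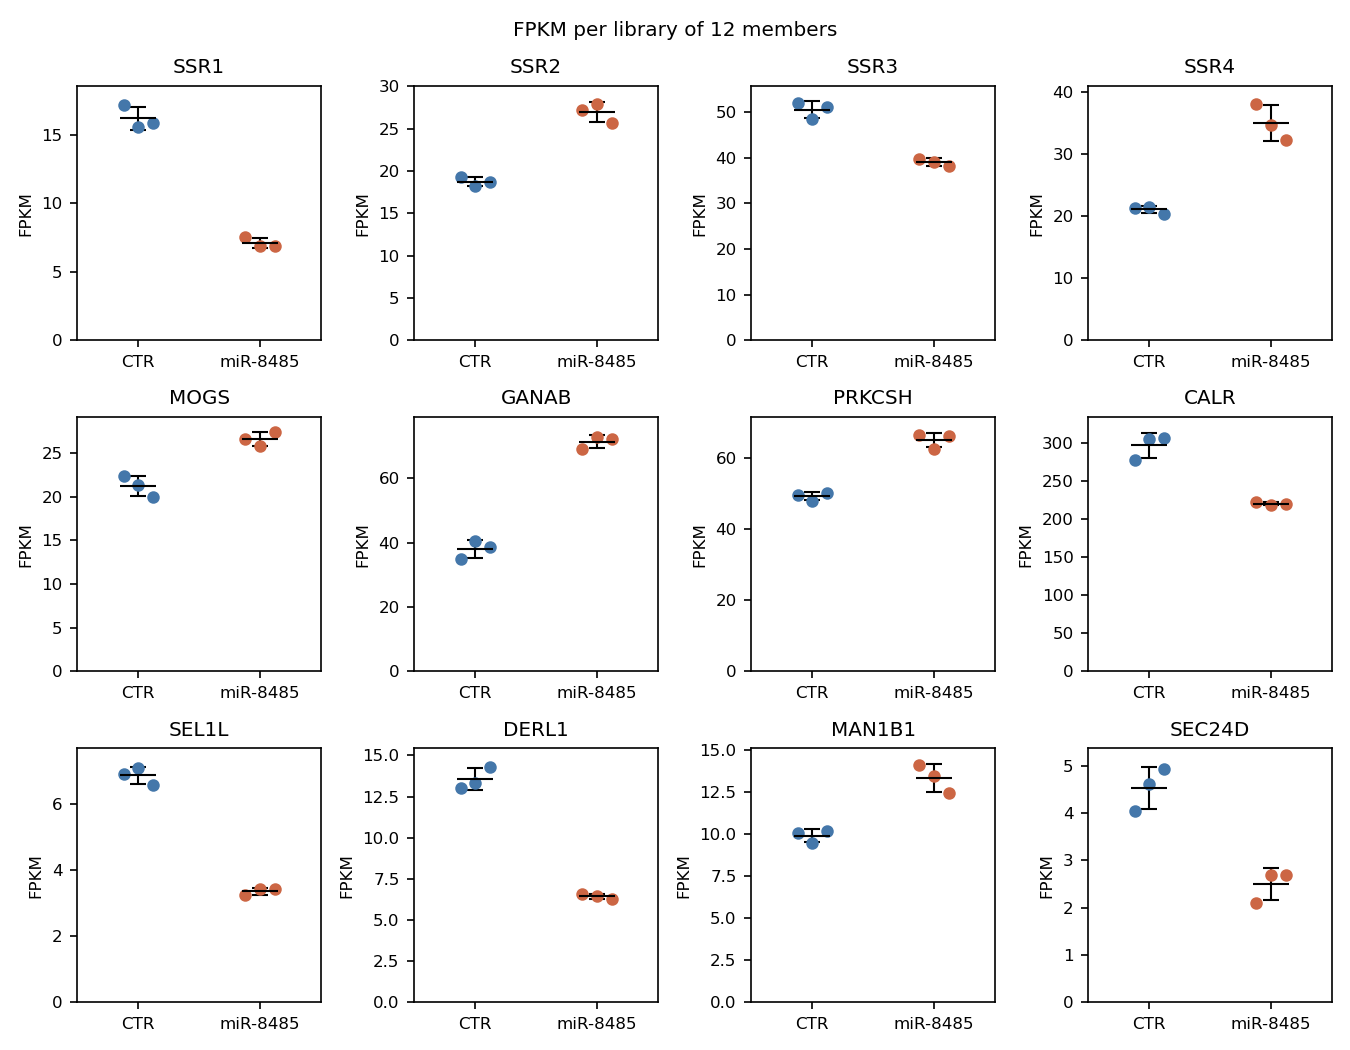
FPKM (y axis, from 0) of 12 members in each CTR (blue) and miR-8485 (red) library, with a panel for each gene. Points are libraries, horizontal marks group means and bars 1 SD over 3 libraries. The groups do not overlap in any panel, with SSR1, SSR3, CALR, SEL1L, DERL1 and SEC24D lower and SSR2, SSR4, MOGS, GANAB, PRKCSH and MAN1B1 higher in miR-8485.

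The lectin chaperones that hold chains with 1 glucose left were both lower. CALR (calreticulin), the soluble lectin with an exact ERSE in its promoter, had 278, 306 and 307 FPKM in CTR and 223, 219 and 219.7 FPKM in miR-8485. CANX (calnexin), its membrane-bound relative, had 106, 109.6 and 109.8 FPKM in CTR and 85.1, 86.8 and 86.03 FPKM in miR-8485. Both ranges were separate, with CALR at -0.43 ± 0.05 (SE), adjusted p = 0.00026, and CANX at -0.33 ± 0.04 (SE), adjusted p = 0.00022. UGGT1, the glucosyltransferase that marks unfolded chains for another round, had 7.89, 8.92 and 8.81 FPKM in CTR and 6.45, 6.87 and 6.99 FPKM in miR-8485. Its paralog UGGT2 had 2.6, 2.49 and 2.297 FPKM in CTR and 1.35, 1.69 and 1.45 FPKM in miR-8485. Both were lower in all 3 miR-8485 libraries, with UGGT2 at -0.69 ± 0.12 (SE), adjusted p = 0.002, and UGGT1 at -0.33 ± 0.07 (SE), adjusted p = 0.0038.

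PDIA4, a disulfide isomerase (ENSG00000155660, chr7:149003062-149028641, minus strand), had 98.6, 100.1 and 106 FPKM in CTR and 64.2, 59.0 and 62.9 FPKM in miR-8485. Its groups did not overlap, and its estimate was the lowest of this step (-0.71 ± 0.05 (SE), adjusted p = 2.5e-05). PDIA3, the isomerase that works with the lectin chaperones, P4HB, the classical isomerase, and PDIA6 changed by -0.58, -0.52 and -0.50 (adjusted p of 3.4e-05 to 5.6e-05). TXNDC5, a further isomerase, was low at 1.29 ± 0.13 FPKM in CTR and 1.23 ± 0.25 in miR-8485, with overlapping libraries (adjusted p = 0.74). DNAJB11 and HYOU1, partners of the HSP70 chaperone of the ER lumen, changed by -0.53 and -0.27.

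The 34 other folding genes, with further isomerases, prolyl isomerases, oxidases and chaperones, had 13 downregulated and 12 upregulated, and a median of -0.07. Their shares were 38.2% and 35.3%, beside 30.5% and 29.1% of all genes. Other proteins of the disulfide isomerase family were called in both directions. TXNDC12 (0.86), ERP29 (0.57), TMX4 (0.32) and TMX3 (0.27) were higher. TMX1 (-0.32), PDIA5 (-0.30), TXNDC11 (-0.27) and ERP44 (-0.20) were lower. TMX2 and DNAJC10 did not pass the threshold. HSPA5, the HSP70 chaperone of the ER lumen, fell from 249 to 134.5 FPKM (-0.89 ± 0.04 (SE), adjusted p = 4.9e-06). The chaperone HSP90B1 fell from 204 to 124 FPKM (-0.72 ± 0.05 (SE), adjusted p = 1.8e-05). FKBP9, a prolyl isomerase of the ER, fell from 15.6 to 5.37 FPKM (-1.52 ± 0.04 (SE), adjusted p = 1.5e-06). ERO1A, the oxidase that recharges disulfide isomerases, fell from 13.9 to 5.61 FPKM (-1.30 ± 0.08 (SE), adjusted p = 1.2e-05). FKBP7, of the same prolyl isomerase family as FKBP9, rose from 1.08 to 4.94 FPKM (2.10 ± 0.12 (SE), adjusted p = 1.1e-05), and PRDX4, a peroxiredoxin of the ER, rose from 34.7 to 70.7 FPKM (1.03 ± 0.08 (SE), adjusted p = 3.9e-05).

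In degradation, 8 of 13 tested members were downregulated (61.5%), 3 were upregulated (23.1%) and 2 did not pass the threshold, with a median of -0.34. Over all tested genes, 30.5% were called lower and 29.1% higher. SEL1L, SYVN1, DERL1 and DERL2 of the membrane ligase complex were lower, while the mannosidases MAN1A1 and MAN1B1 and the lectin OS9 were higher. DERL1, a derlin of the channel through which chains leave the ER, had 13.01, 13.3 and 14.3 FPKM in CTR and 6.597, 6.44 and 6.295 FPKM in miR-8485. Its miR-8485 libraries stood at 47.5% of CTR without overlap (-1.06 ± 0.05 (SE), adjusted p = 7.9e-06). SEL1L, the adaptor that joins lectins and ligase (ENSG00000071537, chr14:81471549-81533861, minus strand), had 6.91, 7.09 and 6.56 FPKM in CTR and 3.23, 3.41 and 3.43 FPKM in miR-8485. It fell to 49.0% of CTR (-1.01 ± 0.06 (SE), adjusted p = 1.3e-05). The ligase SYVN1 (HRD1) fell from 12.1 ± 0.88 to 9.52 ± 0.29 FPKM (SD, n = 3; -0.34, adjusted p = 0.0027). DERL2 had 6.12, 5.59 and 5.62 FPKM in CTR and 4.09, 4.42 and 4.73 FPKM in miR-8485, without overlap (-0.38 ± 0.07 (SE), adjusted p = 0.0032).

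MAN1B1, the ER mannosidase I that starts mannose trimming (ENSG00000177239, chr9:137086927-137109187, plus strand), had 10.1, 9.48 and 10.2 FPKM in CTR and 14.1, 13.5 and 12.5 FPKM in miR-8485. All miR-8485 libraries were higher (0.42 ± 0.06 (SE), adjusted p = 0.00075). MAN1A1, a mannosidase mainly of the Golgi, had 42.3, 42.4 and 43.2 FPKM in CTR and 50.6, 51.5 and 54.2 FPKM in miR-8485. It also rose without overlap (0.29 ± 0.04 (SE), adjusted p = 0.00084). The EDEM proteins trim further mannoses from failed chains and passed the threshold in 1 of 3 cases. EDEM1 had 4.74, 4.97 and 4.48 FPKM in CTR and 2.84, 3.04 and 2.87 FPKM in miR-8485, and fell without overlap (-0.68 ± 0.07 (SE), adjusted p = 0.00014). EDEM2 had 12.2, 12.8 and 14.02 FPKM in CTR and 16.9, 15.6 and 13.6 FPKM in miR-8485, with overlapping libraries and no call (0.24 ± 0.09, adjusted p = 0.055). It was called higher without CTR replicate 3 (adjusted p = 0.0438) or without miR-8485 replicate 3 (0.0136), with a filter of 5 FPKM, with other scalings except TPM and with voom. EDEM3 had 2.601, 2.65 and 2.57 FPKM in CTR and 2.71, 2.303 and 2.32 FPKM in miR-8485, which overlapped (-0.09 ± 0.09, adjusted p = 0.42).

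OS9 and ERLEC1 are lectins that read the trimmed tree and moved in opposite directions. OS9 rose from 18.02 ± 0.83 to 21.9 ± 0.71 FPKM (0.28, adjusted p = 0.0025), and ERLEC1 fell from 19.6 ± 1.64 to 10.9 ± 0.085 FPKM (-0.84, adjusted p = 4.1e-05). Their log2 ratio, picked after the values were seen and not tested, was -0.12 ± 0.11 (SD, n = 3) in CTR and 1.003 ± 0.04 in miR-8485. VCP, the ATPase that extracts chains from the membrane, changed by -0.27 and its cofactor NPLOC4 by -0.58, both called lower.

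Of 33 other degradation genes, 13 were downregulated and 7 upregulated (median -0.09). That is 39.4% and 21.2%, beside 30.5% and 29.1% of all genes. HERPUD1, a membrane protein that recruits derlins to the ligase, fell from 11.6 to 7.05 FPKM (-0.71 ± 0.06 (SE), adjusted p = 7.4e-05), and RAD23B, which carries ubiquitinated chains to the proteasome, fell from 81.7 to 52.7 FPKM (-0.63 ± 0.05 (SE), adjusted p = 5.6e-05). ERLIN2, of a membrane scaffold for the degradation of calcium channels, rose from 2.77 to 4.82 FPKM (0.78 ± 0.07 (SE), adjusted p = 7.9e-05), and TMUB2, a membrane protein with a ubiquitin-like domain, rose from 7.52 to 11.4 FPKM (0.61 ± 0.10 (SE), adjusted p = 0.0016).

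COPII export showed 7 of 12 members downregulated, 0 upregulated by limma (0 at an unadjusted p under 0.05, 0 by voom, and 1, SAR1A, after removal of a trend with gene length or GC content), and 5 not past the threshold, with a median of -0.18. Of all genes, 30.5% were called lower and 29.1% higher. SEC24D, a cargo-binding subunit of the inner coat (ENSG00000150961, chr4:118722823-118838683, minus strand), had 4.05, 4.603 and 4.93 FPKM in CTR and 2.105, 2.69 and 2.69 FPKM in miR-8485. Its groups did not overlap (-0.84 ± 0.12 (SE), adjusted p = 0.00073). LMAN1 (ERGIC-53), a cargo receptor for glycoproteins, had 17.7, 16.4 and 17.5 FPKM in CTR and 11.5, 11.3 and 12.6 FPKM in miR-8485. This receptor fell without overlap (-0.54 ± 0.06 (SE), adjusted p = 0.00019). LMAN2 (VIP36), a related lectin, had 86.8, 81.9 and 82.8 FPKM in CTR and 79.5, 72.01 and 73.8 FPKM in miR-8485, lower without overlap (-0.16 ± 0.05 (SE), adjusted p = 0.027). The call of LMAN2 was lost without CTR replicate 1 or 3 or miR-8485 replicate 2 or 3 (adjusted p of 0.0552 to 0.0987), with no filter (0.0655) and with no variance trend (0.0594).

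Of the other 3 SEC24 paralogs, 2 were called and 1 was not. SEC24A had 6.0, 5.35 and 6.09 FPKM in CTR and 4.198, 4.49 and 4.29 FPKM in miR-8485, and was lower without overlap (-0.42 ± 0.07 (SE), adjusted p = 0.0016). SEC24B had 11.1, 10.04 and 11.2 FPKM in CTR and 8.09, 8.25 and 8.68 FPKM in miR-8485, lower in the same manner (-0.37 ± 0.06 (SE), adjusted p = 0.0016). SEC24C had 6.53, 8.17 and 7.03 FPKM in CTR and 6.64, 8.16 and 7.74 FPKM in miR-8485, with overlapping libraries and no call (0.05 ± 0.10, adjusted p = 0.69).

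SEC23A and SEC23B activate the GTPase of the coat and carry SEC24. SEC23A had 13.4, 12.5 and 13.3 FPKM in CTR and 10.4, 10.8 and 10.3 FPKM in miR-8485, and was lower without overlap (-0.31 ± 0.05 (SE), adjusted p = 0.0013). SEC23B had 30.3, 30.3 and 31.6 FPKM in CTR and 26.4, 27.4 and 28.3 FPKM in miR-8485, lower without overlap (-0.17 ± 0.05 (SE), adjusted p = 0.015), and its call was lost without CTR replicate 3 (adjusted p = 0.0531). SAR1A and SAR1B are the GTPases that start the coat. SAR1A had 15.6, 14.9 and 15.8 FPKM in CTR and 16.4, 16.7 and 16.3 FPKM in miR-8485, all slightly above CTR without a call (0.09 ± 0.04, adjusted p = 0.11). SAR1B had 5.403, 4.997 and 5.36 FPKM in CTR and 4.83, 5.199 and 4.81 FPKM in miR-8485, overlapping and with no call (-0.08 ± 0.06, adjusted p = 0.28). The outer coat proteins SEC13 and SEC31A changed by -0.06 ± 0.06 and -0.19 ± 0.09 and did not pass the threshold (adjusted p = 0.39 and 0.095). SAR1B and SEC13 were called lower under TPM (adjusted p = 0.0491 and 0.0366). SEC31A was called lower without CTR replicate 1 (adjusted p = 0.00635), under TPM (0.0119) and with voom (0.0334).

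Among 38 other genes of export, with exit site organisers, tethers, cargo receptors and SNARE proteins, 13 were downregulated and 6 upregulated of 37 tested (median -0.11). Their shares were 35.1% and 16.2%, beside 30.5% and 29.1% of all genes. TMED7, a p24 cargo receptor, fell from 37.6 to 17.2 FPKM (-1.13 ± 0.05 (SE), adjusted p = 5.8e-06), and GOSR2, a SNARE of the Golgi, fell from 2.72 to 1.81 FPKM (-0.56 ± 0.08 (SE), adjusted p = 0.00089). SEC31B, the paralog of SEC31A, rose from 2.84 to 5.32 FPKM (0.88 ± 0.07 (SE), adjusted p = 3.3e-05), and TMED3, another p24 protein, rose from 4.17 to 7.18 FPKM (0.77 ± 0.07 (SE), adjusted p = 9.5e-05). SEC16B was below the filter.

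Over all 5 steps, the 152 other pathway genes had 51 downregulated and 37 upregulated of 147 tested, or 34.7% and 25.2%. The shares of all genes were 30.5% and 29.1%. Under TPM, 73 of these pathway genes were lower and 26 higher, while 4723 of all 12349 tested genes were lower and 2614 higher. The median log2 fold change of the other pathway genes was -0.07, beside -0.29 for the members.

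Unequal change of paired members was tested on the log2 ratio within each library, for 12 pairs, with an exact two-sided permutation test of 3 against 3 libraries. The smallest p it allows is 0.1, so no pair could pass 0.05. For 10 pairs the groups did not overlap, which gives this smallest exact p of 0.1 and an adjusted value of 0.12. The ratio of EDEM2 to EDEM1 had the largest difference of the 12, with 1.44 ± 0.16 (SD, n = 3) in CTR and 2.35 ± 0.17 in miR-8485 and a difference of 0.91. SEC24C to SEC24D stood at 0.67 ± 0.15 (SD, n = 3) in CTR and 1.56 ± 0.06 in miR-8485 (difference 0.89). DERL1 to DERL2 went the other way (difference -0.68), from 1.22 ± 0.13 in CTR to 0.54 ± 0.14 in miR-8485. The differences were 0.59 for EDEM3 to EDEM1, -0.38 for LMAN1 to LMAN2, 0.36 for UGGT1 to UGGT2, 0.18 for SAR1A to SAR1B, 0.17 for STT3A to STT3B, -0.14 for SEC23A to SEC23B and 0.09 for CANX to CALR. The pairs with overlapping libraries were SEC62 to SEC63 (difference -0.15, exact p = 0.2) and SEC24A to SEC24B (-0.05, exact p = 0.4).

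**Figure D3:**
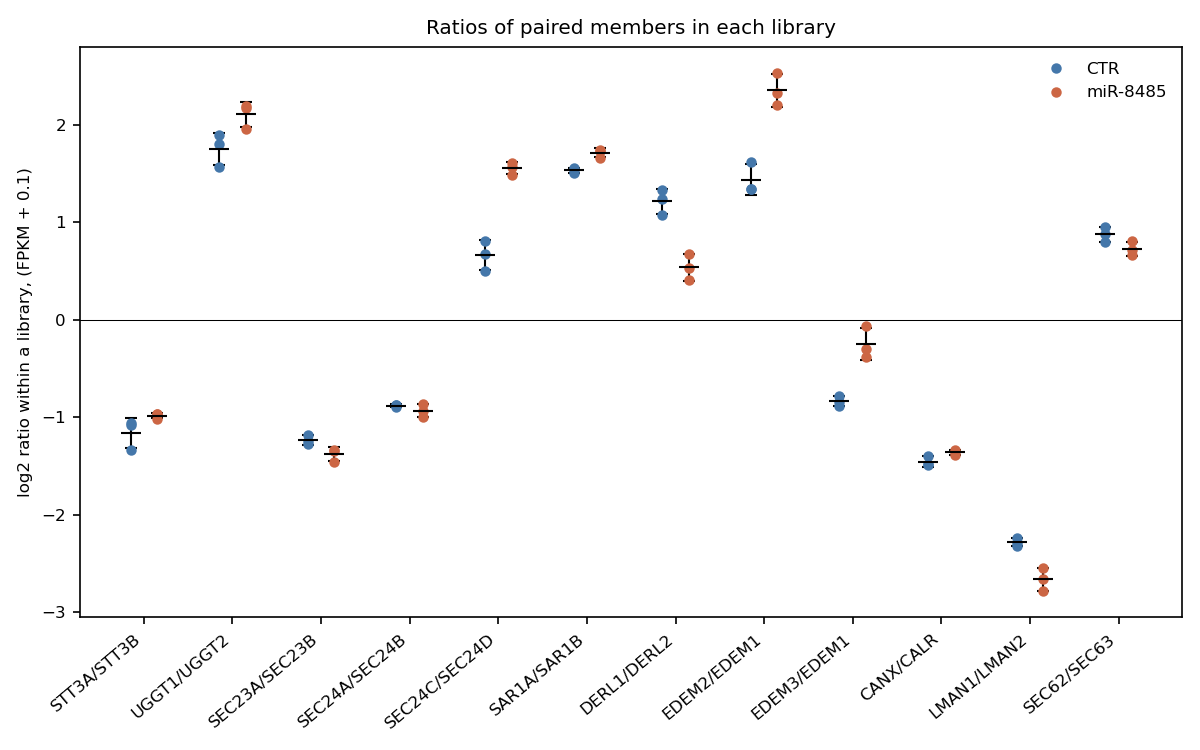
Log2 ratio of FPKM + 0.1 of paired members within each library (y axis) for 12 pairs, with CTR in blue and miR-8485 in red. Points are libraries, marks are means and bars 1 SD over 3 libraries. The groups are separate for 10 pairs, and the widest gaps are those of EDEM2 to EDEM1 and SEC24C to SEC24D.

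The members also differed in base composition. Across the 54 tested members, the log2 fold change and the GC content of the canonical transcript had a Pearson correlation of 0.51 (Spearman 0.44), beside 0.13 (0.18) over 12298 tested genes. The points share the same 6 libraries and are genes, not replicates. Tested genes were cut into 3 equal bins of GC content. Of the 22 members in the lowest bin (up to 44.2% GC), 17 were downregulated and 1, MAN1A1, was upregulated, with a median of -0.38. The 10 members above 54.7% GC had 5 downregulated and 4 upregulated, with a median of -0.11. Over all tested genes the medians of the lowest and highest bins were -0.11 and 0.10. Of all tested genes, 30.5% were called lower and 29.1% higher, and their calls within each bin were not counted. How far the member counts depart from other genes of like GC content is thus not known. After a smooth trend against GC content was removed in each library, 35 members were lower and 9 higher.

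**Figure D4:**
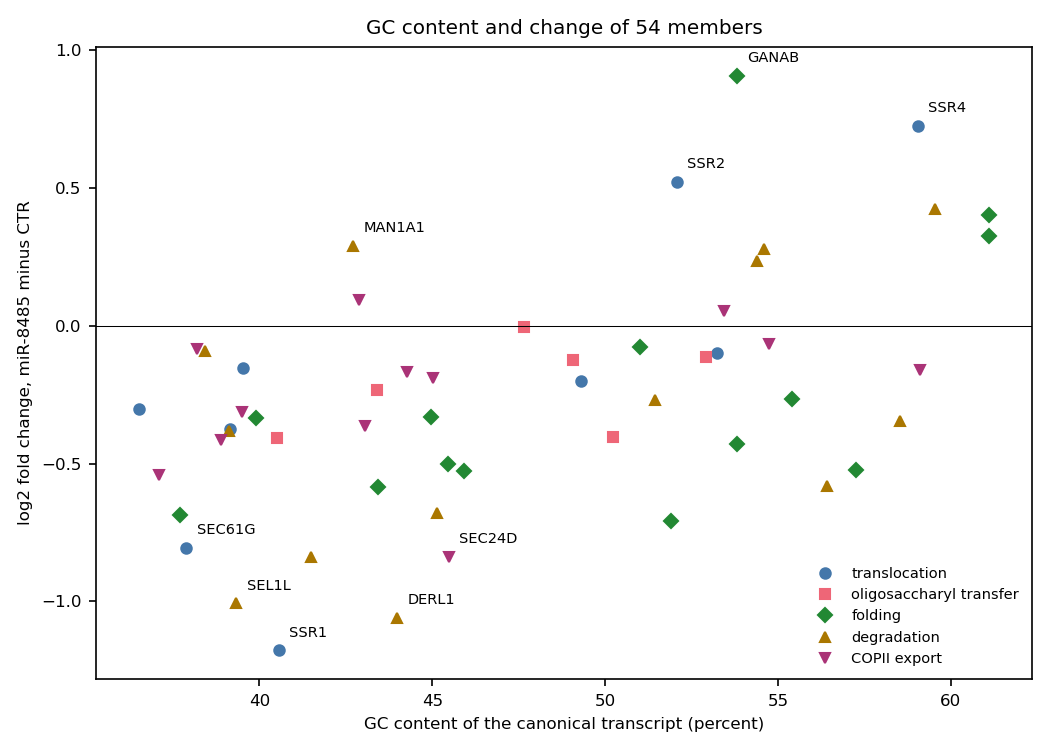
GC content of the canonical transcript in percent (x axis) against the log2 fold change in miR-8485 (y axis) for 54 members, with a symbol for each of the 5 steps. SSR1, SEL1L and SEC61G lie low on the left (-0.81 or less below 41% GC), and GANAB, SSR4 and SSR2 lie high on the right.

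Gene spans of 16 of the 55 members overlap another gene with a mean of at least 1 FPKM. Among the members named with their library values, this holds for SSR1, SSR4, STT3A, DERL1, DERL2, EDEM2, SEC24A, SAR1A and SAR1B, with SEC24A and SAR1B overlapping each other on opposite strands. Whether strand was used in counting is not given in the sources used here, so reads in shared stretches cannot be told apart. For SSR1 (with AL139095.2), STT3A (with CHEK1) and EDEM2 (with RF00275) the overlap is on the same strand. A stranded count would not separate reads in shared stretches there.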

How the data were processed

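RNA-seq was performed on 3 CTR and 3 miR-8485 libraries of HCT116 cells, grouped by the sample titles and described by the authors as independent biological replicates. Per the authors, fastp trimmed the reads, HISAT2 2.0.5 aligned them to hg38 and featureCounts 1.5.0-p3 counted fragments (versions from the submitters' processing notes). They tested counts with DESeq2 and deposited FPKM values per gene, and the annotation release is not given in the sources used here. A count test could not be the main test for FPKM, so the 2-group design was fitted by limma 3.58.1 under R 4.3.3 to log2(FPKM + 0.1) with a trended variance for genes with a mean of at least 1 FPKM, two-sided. This scale understates changes of low genes. Of 58735 rows, 26967 were at 0 in every library, and 3 listed genes were matched by ID because the table gives them another symbol. All FPKM values above 0 (100%) corresponded to a whole number of fragments within 0.05, which gave the depth. Libraries of a group differed by more than sampling noise (chi-square per gene of 2.75 to 10.5, the highest values being those of CTR replicate 1), so each library was counted once. The fit was also run on simulated data with few changed genes and no outlying library. That setting differs from these data, so it does not bear on the calls. Python 3.11.15, scipy 1.17.1, pandas 2.3.3, numpy 2.4.6 and matplotlib 3.10.9 were used for the rest.

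The members and lists were chosen with earlier results of these data known. Library values are given for members called with an absolute log2 fold change of at least 1, for the 2 called members of each step with the largest fall and the largest rise, and for paired members, and the 2 largest falls and rises among called genes are named from the list of other genes of each step. HSPA5, HSP90B1, the other transferase subunits and the other proteins of the disulfide isomerase family are named in addition to these falls and rises, with their values in view. Genes of the 3 lists in the closing section were chosen after their values were seen. Alternatives were pseudocounts of 1 and 0.01, no filter or a mean of at least 5 FPKM, median-of-ratios scaling, TPM, removal of length or GC trends, no variance trend, voom on recovered fragments, the replicate number as a block, and each library left out. Quantile normalization was added after the data were seen.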

Additional observations from a re-analysis of the deposited data

How the results depend on the processing

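The count of members called lower ranged from 29 to 40 over 18 alternatives (34 as reported) and that of members called higher from 8 to 9. No called member changed direction, and 40 of 54 kept their call under every alternative; the other 14 include SEC61B, DDOST, STT3A, SEC23B and LMAN2, whose calls were lost under some. In oligosaccharyl transfer, 2 members instead of 4 were called lower with no filter, and 2 to 5 with a library left out, the 2 being reached without CTR replicate 2, CTR replicate 3 or any miR-8485 library. In COPII export, 1 member was called higher after removal of the length or the GC trend. The step medians fell under TPM to -0.31 (translocation), -0.29 (oligosaccharyl transfer), -0.50 (folding), -0.46 (degradation) and -0.29 (COPII export), where the median of all tested genes was -0.12. Oligosaccharyl transfer had a median of -0.21 under quantile normalization and -0.22 with the length trend removed, and folding -0.43 under quantile normalization; the cause was not tested. With a library left out, the medians ran from -0.25 to -0.18 (translocation), -0.25 to -0.14 (oligosaccharyl transfer), -0.43 to -0.36 (folding) and -0.23 to -0.16 (COPII export). Of the genes called under TPM, 35.6% were higher, against 48.8% as reported.

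No pairing by replicate number was seen. Deviations from the group means of libraries with the same number correlated at 0.067, 0.034 and -0.064, beside -0.094 to 0.061 for different numbers. With 3 libraries in a group, this cannot show whether libraries of the same number shared a batch. With the replicate number as a block, 34 members were lower and 8 higher, and no member's call changed. Members with few fragments, of which TXNDC5 had 87 in its lowest library, carry the widest errors.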

Other observations

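A further 3 gene lists of the same membranes, chosen after the data were seen, were described without a list test, and the genes named from them were picked with their values in view. For comparison, 30.5% of all tested genes were called lower and 29.1% higher. Of 16 tested genes of the COPI coat and its ARF cycle, which carry cargo back to the ER, 9 were downregulated and 4 upregulated (56.25% and 25%). Their median log2 fold change was -0.26. ARF1, the GTPase that recruits the coat, fell from 157 to 85.6 FPKM (-0.87 ± 0.04 (SE), adjusted p = 3.2e-06), and COPG1, a coat subunit, fell from 38.6 to 22.05 FPKM (-0.80 ± 0.07 (SE), adjusted p = 6.5e-05). COPG2, the paralog of COPG1, rose from 7.65 to 10.9 FPKM (0.50 ± 0.07 (SE), adjusted p = 0.00069). Of the 10 genes of the ER membrane protein complex, an insertase for membrane proteins, 3 were downregulated and 2 upregulated. These shares of 30% and 20% do not exceed those of all genes. EMC6 rose from 2.59 to 5.59 FPKM (1.07 ± 0.18 (SE), adjusted p = 0.0014) and EMC10 from 14.9 to 22.1 FPKM (0.57 ± 0.04 (SE), adjusted p = 3.8e-05), while EMC3 fell from 4.01 to 3.03 FPKM (-0.39 ± 0.10 (SE), adjusted p = 0.011). In the 4 genes for insertion of tail-anchored proteins, GET1 and CAMLG, the membrane receptor, rose (0.74 ± 0.08 and 0.84 ± 0.05, adjusted p = 0.00016 and 9.8e-06), and GET3, the ATPase that delivers the cargo, fell (-0.61 ± 0.05, adjusted p = 5.4e-05).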
